A study of Mus musculus with 6 samples.

Results

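Most miRNAs are cut from a long transcript by the nuclear RNAse Drosha before Dicer releases the mature strands. A few reach Dicer by another way, and 6 assays for such miRNAs were examined here among 596 mouse miRNA assays analysed from the TaqMan arrays. They were chosen by name, with earlier results of these data known, as every mouse assay whose number is that of miR-320, miR-484, miR-712, miR-877 or miR-1224, from either strand, and comprise miR-320, miR-484, miR-712, miR-712*, miR-877* and miR-1224. The arrays covered the aortas of 3 EC-Dicerflox mice, which carried VE-Cadherin-CreERT2, Dicer1flox/flox and Apoe-/-, and of 3 EC-DicerWT littermates with VE-Cadherin-CreERT2, Dicer1WT/WT and Apoe-/-. All mice of both groups thus had the Cre transgene and lacked apolipoprotein E, had been given tamoxifen (TMX) on each of 5 days, at 2 mg for every 20 g of body weight, were 6 to 8 weeks old when the diet began, and received a high-fat diet (HFD) for 4 weeks. The VE-cadherin promoter restricts the recombinase to endothelial cells (ECs), whereas the RNA came from the whole aortic wall, which also holds smooth muscle cells and leukocytes. In such tissue, fewer cells of a type and less RNA per cell cannot be told apart. Dicer1 mRNA is no target of these arrays, so that the deletion was not checked in these 6 samples.

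Mirtrons are short introns that the spliceosome, in place of Drosha, cuts to the size of a precursor. MiR-877 and miR-1224 are mirtrons of this kind, each giving a 5′ strand next to the donor splice site and a 3′ strand next to the acceptor site. MiR-320 and miR-484 are made from short transcripts that fold into a hairpin as they are, with a capped 5′ end and no Drosha cut. MiR-712 comes from a spacer of the mouse ribosomal RNA precursor, is mechanosensitive in ECs and is known for suppressing the metalloproteinase inhibitor TIMP3. All of these except the spacer-derived miRNA, whose processing is less settled, are textbook examples of miRNAs that skip Drosha and still need Dicer, in contrast to miR-451, whose precursor Argonaute 2 cuts without Dicer.

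RefSeq sequences of the mouse assembly GRCm38.p6 were matched by name to 3 of the 6 assays, the asterisk of miR-877* standing for the 3′ strand and miR-1224 for the 5′ strand. The mature strands are shown to identify what the assays detect, with the seed (bases 2 to 8, which pair with target mRNAs) in capitals:
miR-877*: uGUCCUCUucucccuccuccca
miR-484: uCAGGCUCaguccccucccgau
miR-1224: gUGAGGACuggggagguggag
Each of these 3 seeds occurs in 1 of the 1738 mature sequences of that table, so that no other listed mouse miRNA shares one. The 3′ strand of miR-877 is 90.9% pyrimidine (C or U), as is usual for the end of an intron. The median of all mature sequences is 50%, and 2 of them, this strand included, are at least as rich in pyrimidines. The mirtron hairpins show the intron borders, with the first and last bases in capitals:
Mir877 (chr17:35960730-35960814, minus strand): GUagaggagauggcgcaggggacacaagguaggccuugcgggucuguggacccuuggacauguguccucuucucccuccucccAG
Mir1224 (chr16:20604452-20604536, plus strand): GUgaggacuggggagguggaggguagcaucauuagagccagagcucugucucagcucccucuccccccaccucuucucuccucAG
In the gene table of the same assembly, Mir877 lies within Abcf1 and Mir1224 within Vwa5b2. The 5′ strand of miR-877 begins at base 1 of the 85-base hairpin and its 3′ strand covers bases 63 to 84. Of the 1005 hairpins in the table, 30 (2.99%) begin with GU and end with AG, Mir20a and Mir194-2 among them, so that these letters alone do not mark a mirtron. Mir484 (chr16:14159626-14159692, plus strand) has its neighbour Marf1 outside the hairpin and overlaps no listed gene. Mir320 overlaps no listed gene either, and its nearest gene is Polr3d.

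The deposited values are CT values, the PCR cycle at which fluorescence crosses a threshold, so that a higher CT means less RNA and 1 cycle is about 1 log2 unit. A well at a CT of 40 gave no signal. The delta CT is the CT of a miRNA minus the mean CT of the control RNAs U6 and snoRNA135 in the same sample, and a log2 fold change is the mean delta CT of EC-DicerWT less that of EC-Dicerflox, so that a negative one means less RNA in EC-Dicerflox aortas. The number of arrays, 3 per group, limits the precision. EC-Dicerflox replicate 3 stood apart, with the highest mean CT of these control RNAs (20.2, against 18.7 to 19.6 in the other samples) and with 375 detected miRNAs, against 402 to 415. Values without this sample are therefore given as well for miR-320 and miR-484, which it moved most among the 4 detected members, beside those without other samples that moved an estimate.

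Of the 6 assays, miR-320, miR-484, miR-712 and miR-877* were detected in all 6 aortas. MiR-712* and miR-1224 were at a CT of 40 in all 6 samples and have no level here. Of all 596 assays, 135 were at 40 throughout. Of miR-877, the 596 assays examined hold the 3′ strand alone, and the 5′ strand was not analysed here. The comparison was fitted with limma over the 461 miRNAs detected in at least 1 sample, and all 4 detected noncanonical miRNAs entered it. None of the 4 had an adjusted p-value under 0.05 (limma with Benjamini-Hochberg adjustment), nor did any of the 461 (0%), by limma, by limma with a trend or by an ordinary linear model. At an unadjusted limma p-value under 0.05, 1 of the 4 passed, which was miR-877*, and 14 of the 461 (3.04%) did. In delta CT, 1 of the 4, again miR-877*, showed no overlap of the groups, as did 48 of the 461 (10.4%).

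The mirtron strand miR-877* was lower in EC-Dicerflox than in EC-DicerWT aortas, at 0.650 times the EC-DicerWT level, by its unadjusted p-value and not by its adjusted one. Its CT was 24.8, 24.6 and 26.2 in EC-Dicerflox replicates 1, 2 and 3, and 24.1, 24.4 and 24.8 in EC-DicerWT replicates 1, 2 and 3. Set against the control RNAs, its delta CT was 5.89, 5.93 and 5.97 in EC-Dicerflox and 5.33, 5.44 and 5.15 in EC-DicerWT mice. All 3 EC-Dicerflox aortas thus lay below every EC-DicerWT aorta in level, and the EC-Dicerflox values lay close together (5.93 ± 0.0413 cycles, SD, n = 3, against 5.31 ± 0.148 cycles, SD, n = 3). The log2 fold change was -0.62 (standard error, SE, 0.23; 95% confidence interval, -1.19 to -0.048), and the p-value by limma was 0.0384 unadjusted and 0.923 adjusted. The SE was 0.39 with U6 alone, 0.36 with snoRNA135 alone and 0.24 with the control RNA snoRNA202 alone, so that the spread depends on the reference. Exact permutation of the 6 samples, with replicate numbers left aside, gave a two-sided p of 0.1, the smallest that 20 arrangements allow. Under a replicate block, the log2 fold change was -0.62 and the unadjusted limma p-value 0.0759. Pairs of the same replicate number differed by -0.56, -0.48 and -0.82 log2 units for replicates 1, 2 and 3. The unadjusted p-value also rose above 0.05 with U6 alone (0.223), with snoRNA135 alone (0.102), with control RNAs of the same card (0.0693), and when any of the 6 samples was left out (0.0565 to 0.0983, the highest without EC-Dicerflox replicate 1 and the lowest without EC-DicerWT replicate 2).

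**Figure D1:**
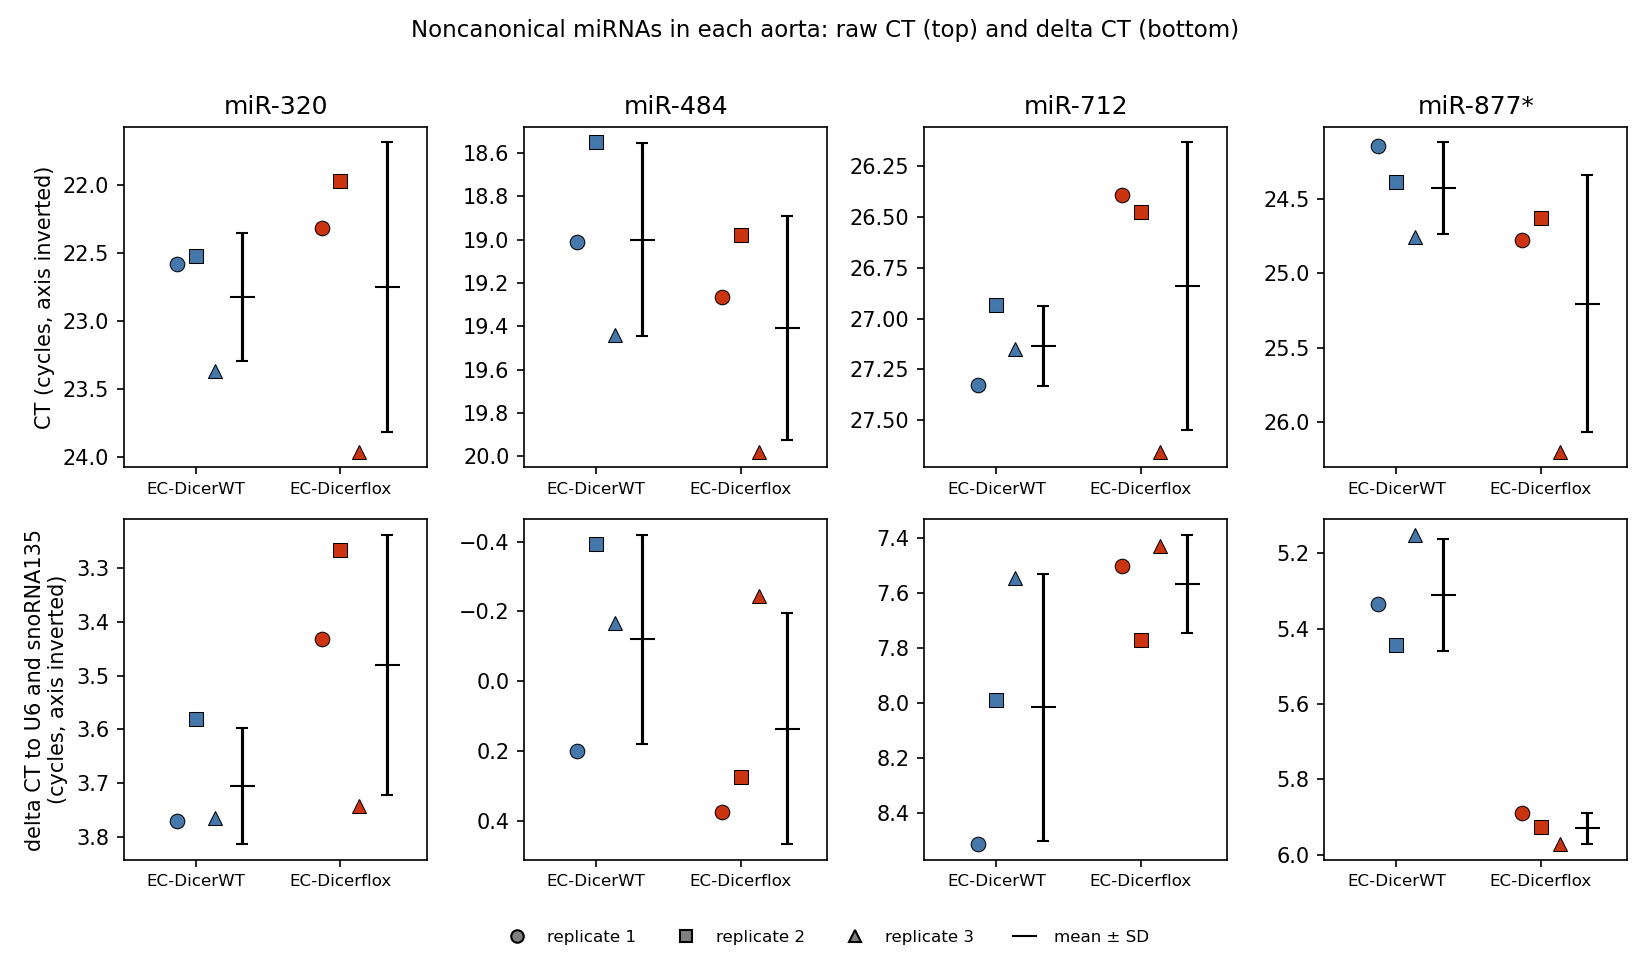
CT (top, cycles) and delta CT to U6 and snoRNA135 (bottom, cycles) of the 4 detected noncanonical miRNAs, with inverted axes so that higher means more RNA; symbols are the 3 aortas of each group by replicate number, and the bars give the mean ± SD. Only the delta CT of miR-877* separated the groups, with 5.89 to 5.97 in EC-Dicerflox and 5.15 to 5.44 in EC-DicerWT mice.

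The miRNAs from directly transcribed hairpins, miR-320 and miR-484, did not pass the test. MiR-320 is a broadly expressed miRNA. Its CT was 22.3, 22.0 and 24.0 in EC-Dicerflox and 22.6, 22.5 and 23.4 in EC-DicerWT replicates 1, 2 and 3. The delta CT was 3.43, 3.27 and 3.74 in EC-Dicerflox and 3.77, 3.58 and 3.76 in EC-DicerWT mice, so that the groups overlapped through EC-Dicerflox replicate 3. The log2 fold change of miR-320 was 0.23 (SE 0.25; 95% confidence interval, -0.41 to 0.86; unadjusted p by limma, 0.408; by exact permutation, two-sided, p = 0.2), and it was 0.36 without EC-Dicerflox replicate 3 and 0.12 without EC-Dicerflox replicate 2 (unadjusted p by limma, 0.249 and 0.708). Pairs of the same replicate number differed by 0.34, 0.31 and 0.024 log2 units.

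MiR-484 had the lowest CT of the 4 assays. It was 19.3, 19.0 and 20.0 in EC-Dicerflox and 19.0, 18.6 and 19.4 in EC-DicerWT replicates 1, 2 and 3. The delta CT was 0.374, 0.275 and -0.244 in EC-Dicerflox and 0.199, -0.394 and -0.166 in EC-DicerWT mice. Replicates 1 and 2 of EC-Dicerflox lay below every EC-DicerWT sample in level, while replicate 3 lay within their range. The log2 fold change of miR-484 was -0.26 (SE 0.31; 95% confidence interval, -1.04 to 0.53; unadjusted p by limma, 0.444; by exact permutation, two-sided, p = 0.4). It was -0.44 without EC-Dicerflox replicate 3, -0.42 without EC-DicerWT replicate 1, -0.14 without EC-Dicerflox replicate 1 and -0.12 without EC-DicerWT replicate 2, with no unadjusted p-value under 0.05. Pairs of the same replicate number differed by -0.18, -0.67 and 0.078 log2 units.

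MiR-712, the miRNA of the ribosomal RNA spacer, had the highest estimate of the 4 without passing the test. Its CT was 26.4, 26.5 and 27.7 in EC-Dicerflox and 27.3, 26.9 and 27.2 in EC-DicerWT replicates 1, 2 and 3. The delta CT was 7.50, 7.77 and 7.43 in EC-Dicerflox and 8.51, 7.99 and 7.54 in EC-DicerWT mice. Replicates 1 and 3 of EC-Dicerflox lay above every EC-DicerWT aorta in level, and EC-DicerWT replicate 1 lay farthest below the other samples. The log2 fold change was 0.45 (SE 0.34; 95% confidence interval, -0.40 to 1.30; unadjusted p by limma, 0.237; by exact permutation, two-sided, p = 0.2). Without EC-DicerWT replicate 1 it was 0.20 and without EC-DicerWT replicate 3 it was 0.68 (unadjusted p by limma, 0.576 and 0.0916). Pairs of the same replicate number differed by 1.01, 0.22 and 0.11 log2 units.

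A change from U6 and snoRNA135 to either alone or to snoRNA202 moves all miRNAs of a sample by the same amount, and over the 350 miRNAs detected in all samples the median log2 fold change was 0.10 with U6 and snoRNA135, 0.19 with U6 alone and -0.058 with snoRNA202 alone. Relative to this median, the log2 fold change was -0.72 for miR-877*, -0.36 for miR-484, 0.12 for miR-320 and 0.34 for miR-712, whichever of these control RNAs was used. Relative to the median of the miRNAs on its own card, it was -0.54 for miR-877*, -0.43 for miR-484, 0.048 for miR-320 and 0.53 for miR-712, since that median was 0.18 on the card of miR-320 and miR-484 and -0.081 on the other. By the log2 fold change to U6 and snoRNA135 itself, with no median taken off, 13.7% of the 350 miRNAs lay lower than miR-877*, 25.4% than miR-484, 63.1% than miR-320 and 82.6% than miR-712. The 4 noncanonical miRNAs, 2 of them lower and 2 higher, had a median log2 fold change of -0.015, beside 0.082 for the other 457 miRNAs tested. They thus lay on both sides of the median of the other miRNAs.

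**Figure D2:**
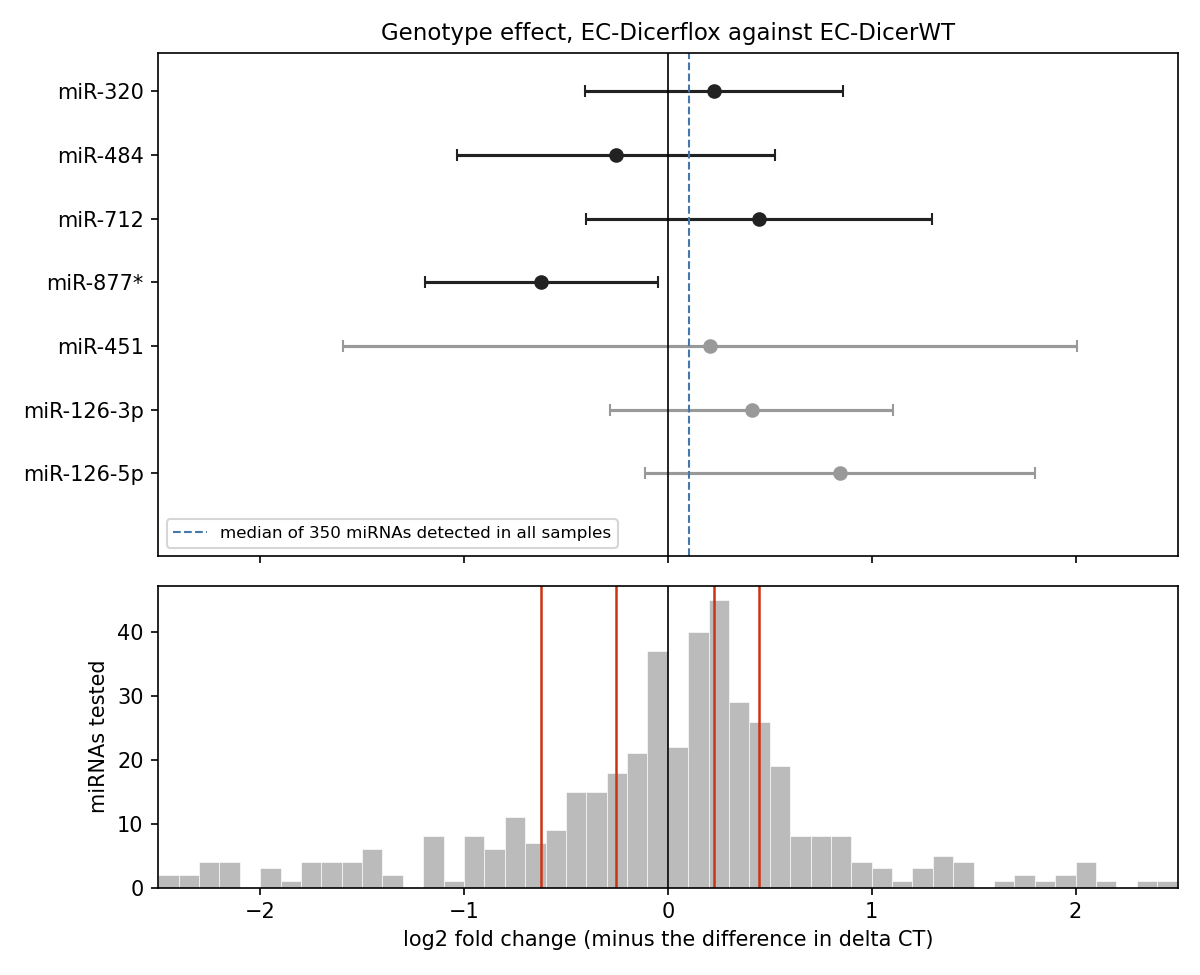
Top, log2 fold change with its 95% confidence interval (limma) of the 4 noncanonical miRNAs (black) and of miR-451, miR-126-3p and miR-126-5p (grey), with the median of the 350 miRNAs detected in all samples as a dashed line. Bottom, the number of miRNAs tested per bin of log2 fold change, with red lines at the 4 noncanonical miRNAs; 430 of 461 lie within the drawn range, and the interval of miR-877* (-1.19 to -0.048) is the only one of the 7 that does not reach 0.

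**Figure D3:**
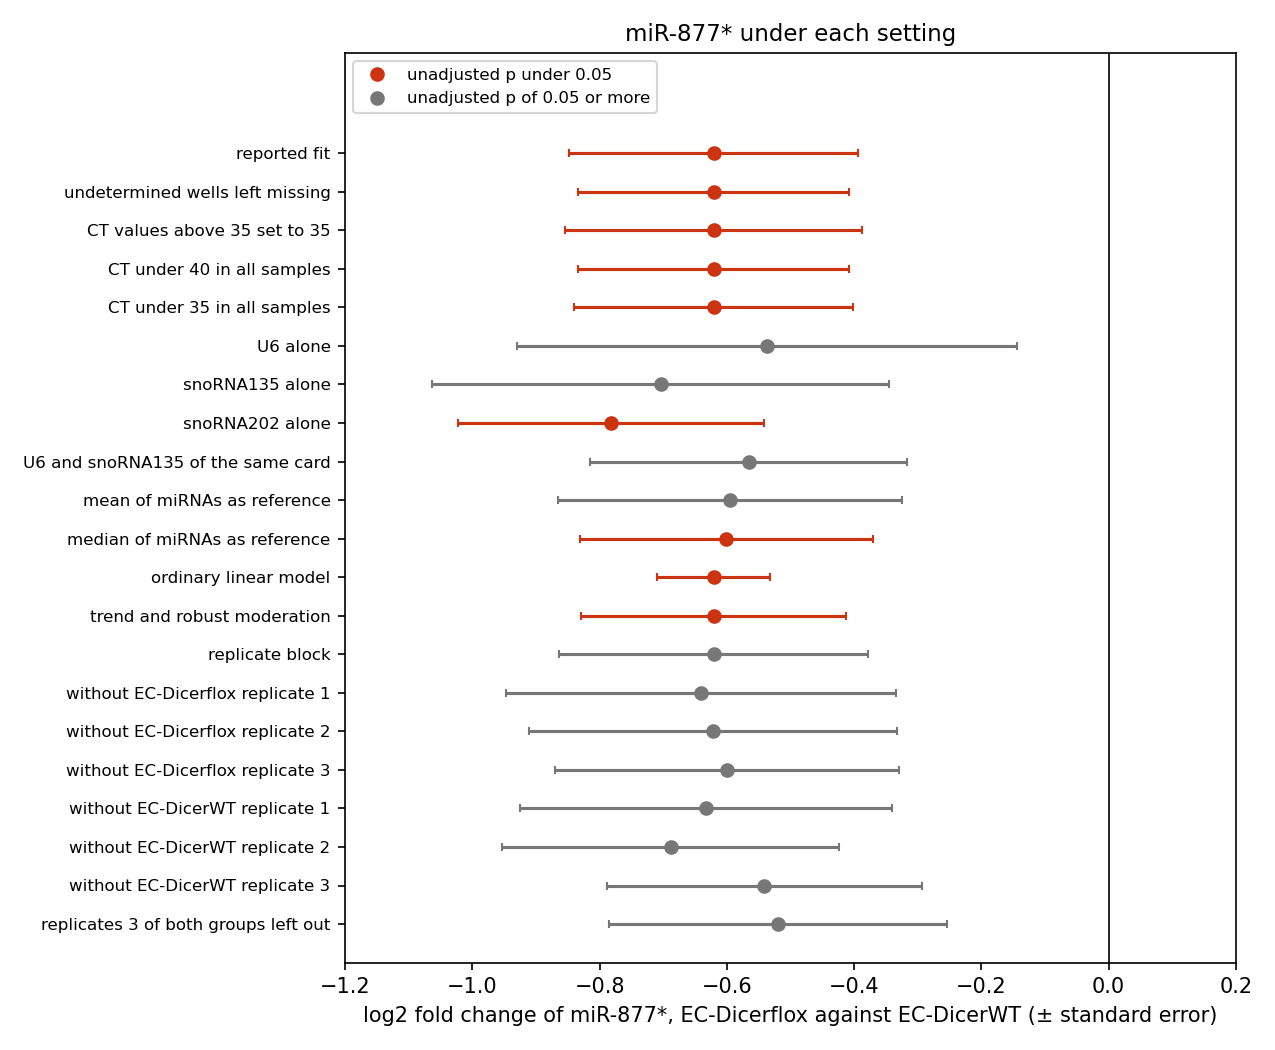
Log2 fold change of miR-877* with its SE for the reported fit and each alternative; red points have an unadjusted p-value under 0.05 and grey points do not. All estimates lie below 0, between -0.78 with snoRNA202 alone and -0.52 with replicates 3 of both groups left out.

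The noncanonical miRNAs were also set against each other within each sample. All 6 pairs of the 4 detected miRNAs were compared, and the pairs share members. In raw CT, the group difference of a pair follows from the log2 fold changes of its members given above. The pairs are thus no separate evidence, and miR-712 with miR-877* joins the highest estimate with the lowest. By their assay numbers, both assays of a pair lay on the same card in 2 pairs. These were miR-320 with miR-484 and miR-712 with miR-877*, for which no control RNA is needed. The other 4 pairs span both cards, whose control RNAs differed by 0.568, 0.411 and -0.187 cycles in EC-Dicerflox and by 0.465, 0.338 and 0.322 cycles in EC-DicerWT replicates 1, 2 and 3. Those pairs are therefore also given after the control RNAs of each card had been taken off, an alternative chosen after seeing the data. The CT of miR-712 minus that of miR-877*, which are assays of the same card, was 1.61, 1.84 and 1.46 cycles in EC-Dicerflox and 3.18, 2.54 and 2.39 cycles in EC-DicerWT replicates 1, 2 and 3. The gap between the mirtron strand and the spacer miRNA was therefore smaller in every EC-Dicerflox aorta, by a mean of 1.07 cycles (1.64 ± 0.194, SD, n = 3, against 2.71 ± 0.417, SD, n = 3; by exact permutation, two-sided, p = 0.1, which is the least that 20 arrangements allow, and 0.2 once adjusted over the 6 pairs by Benjamini-Hochberg).

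The CT of miR-320 minus that of miR-877* was -2.46, -2.66 and -2.23 cycles in EC-Dicerflox and -1.56, -1.86 and -1.39 cycles in EC-DicerWT mice, without overlap (difference -0.846 cycles; by exact permutation, two-sided, p = 0.1, adjusted p = 0.2). With the control RNAs of each card taken off, the groups overlapped, at -3.03, -3.07 and -2.05 cycles against -2.03, -2.20 and -1.71 cycles. The difference was then -0.736 cycles (by exact permutation, two-sided, p = 0.2, adjusted p = 0.4). Samples of the same replicate number differed by -0.998, -0.872 and -0.338 cycles, and no source says what a number shares. The CT of miR-484 minus that of miR-712 did not overlap either, with -7.13, -7.50 and -7.68 cycles in EC-Dicerflox and -8.32, -8.38 and -7.71 cycles in EC-DicerWT mice (difference 0.703 cycles; by exact permutation, two-sided, p = 0.1, adjusted p = 0.2). In the last pair, EC-Dicerflox replicate 3 and EC-DicerWT replicate 3 lay only 0.036 cycles apart. It stayed without overlap with the control RNAs of each card taken off (difference 0.814 cycles; by exact permutation, two-sided, p = 0.1, adjusted p = 0.3). The other 3 pairs overlapped: the group difference was -0.481 cycles for miR-320 minus miR-484 (by exact permutation, two-sided, p = 0.4), 0.222 cycles for miR-320 minus miR-712 (p = 0.7) and -0.365 cycles for miR-484 minus miR-877* (p = 0.3). With the control RNAs of each card taken off, miR-320 minus miR-712 differed by 0.333 cycles (by exact permutation, two-sided, p = 0.6). For miR-484 minus miR-877* the difference was then -0.255 cycles (by exact permutation, two-sided, p = 0.4), and both pairs still overlapped. No pair passed after adjustment. Raw CT differences without overlap were thus found in 3 of 6 pairs, and in 11.3% of the 61075 pairs that the 350 miRNAs form. With the control RNAs of each card taken off, they were found in 2 of 6 pairs and in 10.9% of the 61075.

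**Figure D4:**
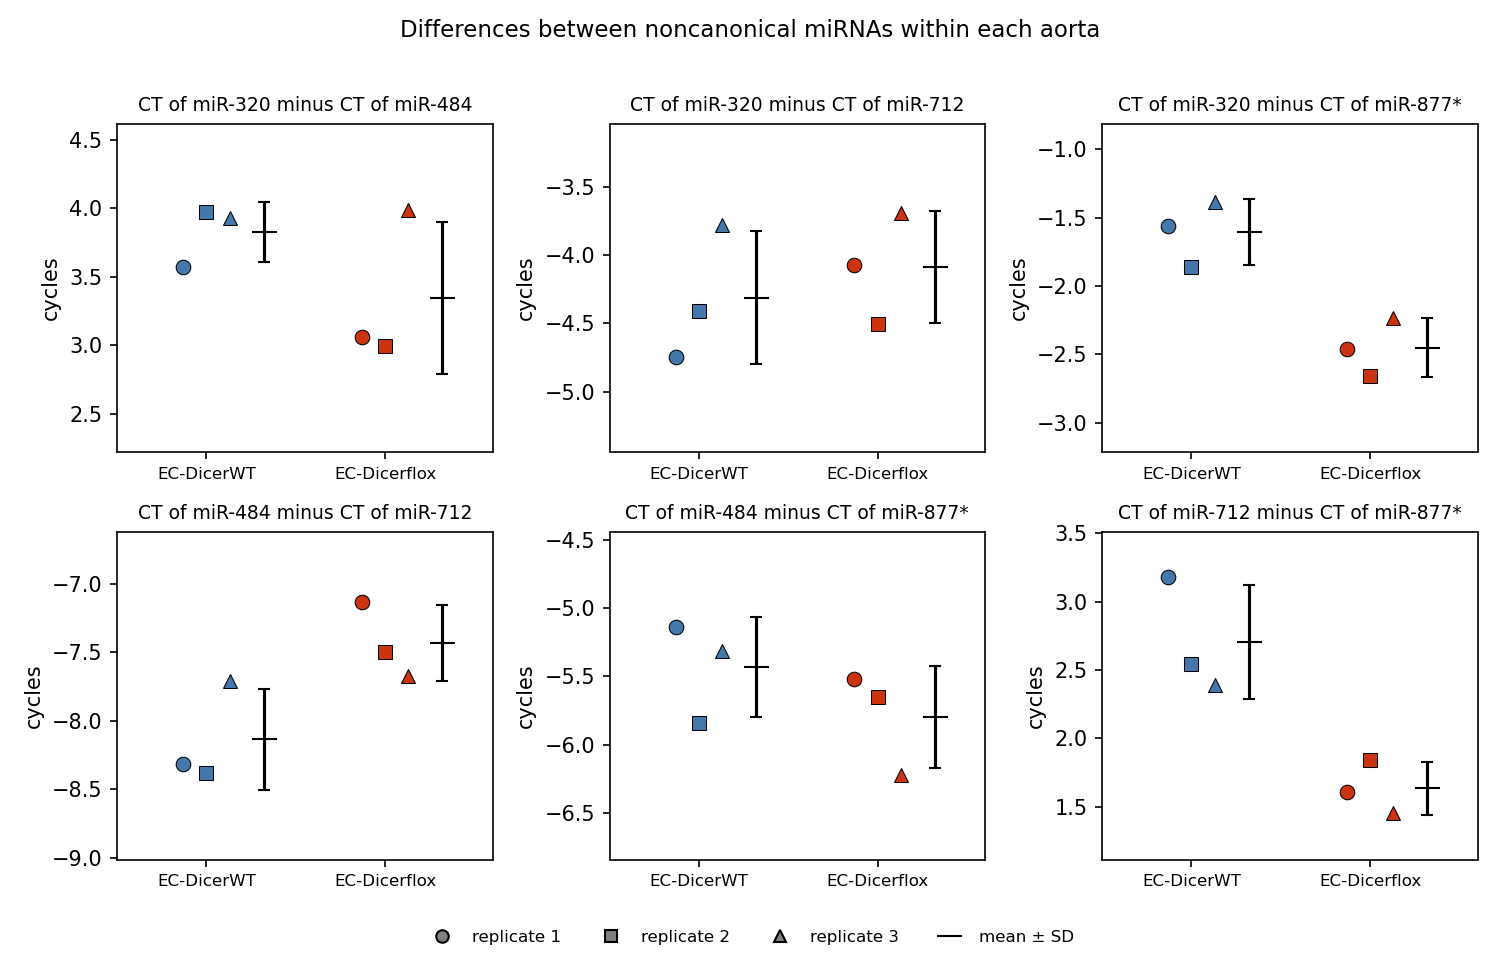
CT differences in cycles within each aorta for the 6 pairs of noncanonical miRNAs, with symbols for the replicate number and bars for the mean ± SD; all panels span the same number of cycles. The groups are apart for miR-712 minus miR-877* (1.46 to 1.84 against 2.39 to 3.18), miR-320 minus miR-877* and miR-484 minus miR-712; only the first of these has both assays on the same card.

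By mean CT, miR-484 ranked 17, miR-320 ranked 65, miR-877* ranked 119 and miR-712 ranked 167 among the 350 miRNAs detected in all samples. The assays differ in how well they amplify, so that this order is one of CT values and not of RNA molecules. In raw CT, the 4 assays ranged over 1.26 (miR-712) to 2.05 cycles (miR-877*) across the 6 samples, and in delta CT over 0.504 (miR-320) to 1.08 cycles (miR-712).

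The likeness of profiles was described by the root mean square difference between delta CT values over the 6 samples, each profile being centred on its own mean. MiR-877* was closest to miR-495 (0.156 cycles) and miR-301b (0.203 cycles), and the median distance to all other miRNAs was 0.581 cycles. MiR-320 was closest to miR-379 (0.0817 cycles) and miR-31 (0.0956 cycles), with a median of 0.469 cycles. MiR-484 was closest to miR-409-3p (0.107 cycles) and miR-667 (0.158 cycles), and miR-712 to miR-34c (0.198 cycles) and miR-146a (0.218 cycles), with medians of 0.602 and 0.626 cycles. All these profiles share the same 6 samples and control RNAs.

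MiR-451, the erythroid miRNA that matures without Dicer, gave a log2 fold change of 0.21, EC-Dicerflox over EC-DicerWT (SE 0.71, unadjusted p by limma, 0.784), and its CT ranged from 20.4 to 23.6 over the 6 aortas. With this spread it gave no reference point for the noncanonical miRNAs. MiR-126, the miRNA most typical of ECs, had log2 fold changes of 0.41 (miR-126-3p, unadjusted p by limma, 0.193) and 0.85 (miR-126-5p, 0.0727). MiR-205, whose seed region is known to resemble that of miR-712, had CT values of 32.8, 30.5 and 40 in EC-Dicerflox and 32.6, 40 and 38.4 in EC-DicerWT replicates 1, 2 and 3, so that wells without signal occurred in both groups. The list of flow-linked and NF-κB-linked miRNAs (miR-92a, miR-10a, miR-19a, miR-126-5p, miR-146a and miR-181b) had 5 of 6 names in the table, of which 0 passed an unadjusted limma p-value under 0.05, 4 were higher and 1 was lower (median log2 fold change of 0.15), beside 14 passing, 251 higher and 210 lower among all 461 miRNAs tested (median log2 fold change of 0.082). With snoRNA202 alone, 2 were higher and 3 were lower. The median log2 fold change over the miRNAs detected in all samples was then -0.058.

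Markers of other cell types were set beside these values. Among 4 leukocyte miRNAs (miR-142-3p, miR-142-5p, miR-150 and miR-223), 3 had lower estimates with every reference used. MiR-142-5p was lower by its unadjusted p-value alone (log2 fold change of -0.996; limma p-value, 0.00989 unadjusted and 0.923 adjusted). The summed leukocyte level, as log2 relative to the control RNAs, was -0.89 to -0.23 in EC-Dicerflox and -0.54 to 0.32 in EC-DicerWT aortas, and did not overlap with snoRNA202 alone. The summed level of both EC miRNAs was 1.05 to 1.72 in EC-Dicerflox and 0.84 to 0.91 in EC-DicerWT aortas, which did not overlap with U6 and snoRNA135, or with the mean or median of the miRNAs as the reference, and did overlap with U6, snoRNA135 or snoRNA202 alone or with the control RNAs of the same card. Smooth muscle miRNAs (miR-143 and miR-145) overlapped at 4.30 to 5.56 and 4.23 to 4.83, and did not with U6 alone. Of the 6 listed striated muscle miRNAs, 5 were in the table, of which miR-208b and miR-499 were at a CT of 40 in all samples, and the sum of the list was 0.043 to 0.46 and 0.023 to 0.16. The erythroid sum was -2.21 to -1.23 in EC-Dicerflox and -2.42 to -0.70 in EC-DicerWT aortas. It rests on 2 of the 3 listed names, miR-451 and miR-486, 1 higher and 1 lower, as miR-144 was not in the table. The part of the leukocyte and EC content in the values of miR-877* and miR-712 was not tested.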

How the data were processed

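Aortic miRNAs of 3 EC-Dicerflox and 3 EC-DicerWT mice were measured with TaqMan MicroRNA array cards after Megaplex reverse transcription and pre-amplification. The authors deposited CT values, which are on a log2-like scale and are neither normalized nor averaged; settings of threshold and baseline are not given in the sources used here. Columns were assigned by name, and 0 columns of sample values were unused. By the labels the mice were male, by the study's methods female. The members, lists and tests were chosen with earlier results of these data known. Reported are the assays of the numbers named in the text, the comparators miR-451, miR-126 and miR-205, the 2 closest profiles of each member, and the marker and flow-linked lists. Which of the 2 cards held an assay was read from how its number is written.

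Delta CT values (mean of 4 wells of U6 and snoRNA135) were compared with limma 3.58.1 (R 4.3.3), and p-values were adjusted by Benjamini-Hochberg over the 461 miRNAs that gave a CT below 40 in 1 sample or more. The test was checked on simulated data. Single values and CT differences were compared by exact two-sided permutation. The labels call the samples biological replicates. No pair of samples held identical values. Same-numbered samples deviated together (correlations of 0.150, 0.224 and 0.431 over 350 miRNAs). Samples of numbers 1 and 2 correlated across numbers too (0.285 and 0.117), and those of number 3 correlated negatively with both (-0.353 to -0.185). No source says what a number shares, so that a matching by number is unsettled. The reported fit and the exact permutations leave it out, and the replicate block is an alternative. Alternatives were another treatment of undetermined or high CT values, stricter detection, other control RNAs or miRNAs as the reference, other models, the replicate block, and fewer samples. The difference between the strands of miR-877 was planned and not run, since only miR-877* was analysed. The 12-week arrays were not analysed here.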

Additional observations from a re-analysis of the deposited data

How the results depend on the processing

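The log2 fold changes of miR-320, miR-484, miR-712 and miR-877* kept their direction in all 14 alternatives and in all 6 fits without 1 sample. MiR-320, miR-484 and miR-712 stayed above an unadjusted p-value of 0.05 in each, with log2 fold changes of 0.064 to 0.33, -0.42 to -0.17 and 0.29 to 0.61 over the alternatives, and of 0.12 to 0.36, -0.44 to -0.12 and 0.20 to 0.68 without 1 sample. MiR-877* kept its unadjusted p-value under 0.05 in 8 alternatives. It lost it with U6 alone (-0.54), snoRNA135 alone (-0.70), control RNAs of the same card (-0.57), the mean of the miRNAs as the reference (-0.60), the replicate block (-0.62) and, chosen after seeing the data, with replicates 3 of both groups left out (-0.52). It also lost it without any 1 sample (-0.69 to -0.54), where fewer samples entered the fit. Its unadjusted p-value was 0.0022 with the ordinary linear model, which uses the small spread of this miRNA alone, taken to the mean of U6 and snoRNA135. The replicate block changed the call of none of the other 3. Over all miRNAs it gave 15 unadjusted p-values under 0.05 against 14, with 9 miRNAs in both. The number of miRNAs with an unadjusted p-value under 0.05 was 14, 9 with U6 alone, 24 with the ordinary linear model, and 12 to 22 without 1 sample, with 22 and 2 adjusted calls without EC-Dicerflox replicate 1 and 1 adjusted call without EC-Dicerflox replicate 3. The strand difference of miR-877 and its alternatives were not run.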

Other observations

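Outside the chosen numbers, other hairpins of the RefSeq table that begin with GU and end with AG and have a tested assay were Mir1981, Mir1982, Mir20a and Mir194-2, looked up after the values of miR-877* had been seen. The log2 fold change was -1.46 for miR-1982.1 (SE 0.58; unadjusted p by limma, 0.0514), with overlapping groups, -0.18 for miR-1982.2 (0.647), 0.12 for miR-1981 (0.820), 0.19 for miR-20a (0.574), 0.17 for miR-20a* (0.737) and 0.40 for miR-194 (0.488).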
